A study of Danio rerio with 8 samples.

Results

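The otic vesicle genes examined here are 10 genes that mark the ear placode, the otic vesicle or the otoliths of the zebrafish embryo: otomp, oc90, stm, eya1, eya2, dlx3b, dlx4b, pax8, pax5 and hmx3a. They were chosen by name, and each matched 1 of the 32189 gene IDs in the count table. The table writes 5 of them in capitals, as EYA1, PAX8, PAX5, HMX3 and DLX3. HMX3 was read as hmx3a because hmx3b has an ID of its own, and DLX3 as dlx3b because RefSeq lists dlx3b and no dlx3a. RNA was counted in 8 libraries, each made from the hindbrain and surrounding tissue of a single embryo of the strain Tg(hsp70:ca-fgfr1) at 24 to 25 hours post-fertilisation (hpf). Of these, 4 were controls with the genotype wt and 4 carried the transgene for constitutively active fgfr1 (ca_fgfr1), driven by a heat-inducible promoter that is not limited to ear or hindbrain. Both groups were raised at 28.5°C to 22 hpf, held at 38.5°C for 30 min and returned to 28.5°C for 2 h, so the heat was shared and the transgene was what differed. Transgenic parents were heterozygous and outcrossed, and the embryos of the clutch were assigned by qPCR on their RNA. The paper states that qPCR was also used to judge each dissection, and that only tissue free of contamination was sequenced.

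The inner ear arises from the otic placode, a thickening of the ectoderm beside the hindbrain. Fgf ligands from the hindbrain induce the placode, within a wider preplacodal domain marked by Dlx, Eya and sine oculis-related genes, and Pax genes are switched on as it forms. The placode then closes into the otic vesicle, in which Fgf signals promote anterior character, and the epithelium secretes the matrix on which otoliths, the ear stones that sense gravity, crystallise. Whether activation of Fgfr1 for a few hours at this stage changes the RNA of these genes was the comparison made. The tissue is a mixture, so fewer otic cells and less RNA per otic cell cannot be told apart in any value given here.

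Libraries held 13173019 to 20541155 counts. Expression is given in CPM, the count of a gene relative to its library total after scaling for composition. Of 10 Fgf response genes, 10 had a fitted change above 0, beside 8298 of all 18075 genes tested. Their median log2 fold change was 1.57, but etv5a (0.04) and spred1 (0.02) were near 0. The groups did not overlap for 6 of the 10, beside 3.34% of all genes. The test over all genes was passed by 1, spry2 (ENSDARG00000078308), a feedback inhibitor of Fgf signalling (log2 fold change 1.77 ± 0.25 SE, edgeR adjusted p = 0.0408). Both gene IDs named FGFR1 overlapped between groups (19.2 ± 5.54 and 20.3 ± 2.88 CPM for ENSDARG00000011027, 17.9 ± 7.53 and 13.1 ± 5.57 CPM for ENSDARG00000011190, control and ca_fgfr1, SD, n = 4 each). The transgene could not be seen in these counts, and whether its reads would be counted under either ID was not tested. Hindbrain genes were present in every library, such as sox3 of neural progenitors (821 to 1231 CPM) and egr2b of rhombomeres (24.7 to 56.2 CPM). Control replicate 1 stood apart, with a mean correlation across genes of 0.893 to the other controls, against 0.926 to 0.940 for each of those and 0.945 to 0.953 within ca_fgfr1. Fold changes of the genes for which it was the lowest library are given with and without it.

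RNA of the otolith genes otomp and stm was present in every dissection, at 60.1 CPM or more, and a change was not detectable for any of the 10 otic genes. None passed an edgeR adjusted p of 0.05, where 9 of the 18075 genes tested did (0.0498%), and DESeq2 called 0 of the 10 as well. None reached an unadjusted p under 0.05 either, a threshold that 5.34% of all tested genes passed, and the groups overlapped for 10 of 10, where 3.34% of all genes did not overlap. Fitted changes lay on both sides of 0. Of the 10 genes, 5 were below 0, beside 54.1% of all genes tested, and the median log2 fold change was -0.03, beside -0.04 over all genes. That median was 0.12 without control replicate 2, 0.11 without ca_fgfr1 replicate 2 and 0.15 with limma-voom, so its sign was not stable. All 10 passed the filter on low counts, and their fitted log2 fold changes ran from -0.27 (eya1) to 0.71 (pax5).

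**Figure D1:**
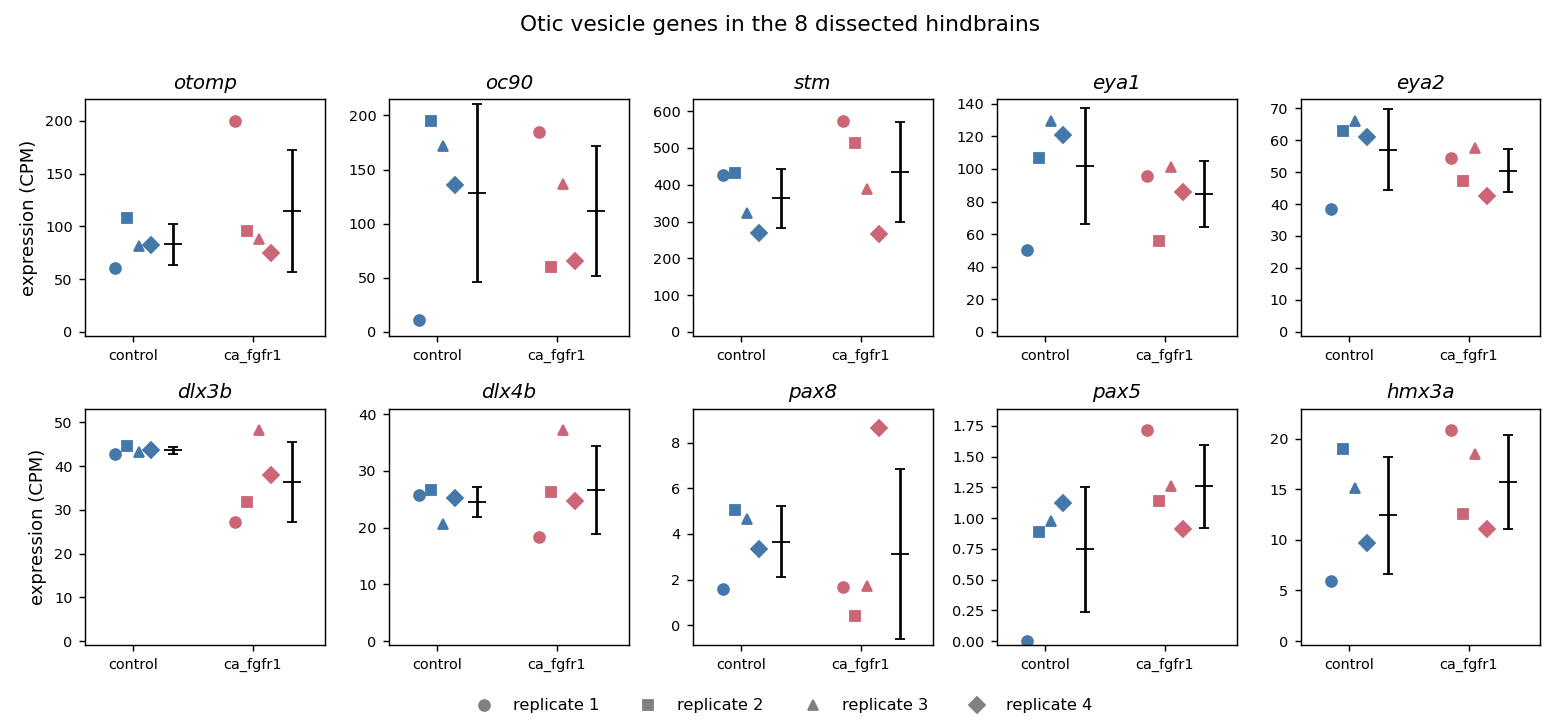
Expression of the 10 otic genes in CPM (vertical axes, linear, each with its own range) in the 4 control (blue) and 4 ca_fgfr1 (red) libraries. Each symbol is 1 library, its shape gives the replicate number, and the black bar is the mean with its SD. Groups overlap in every panel, control replicate 1 is lowest for 6 genes, and ca_fgfr1 replicate 1 holds the highest otomp value, 200.1 CPM.

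The otolith matrix genes are products of the otic epithelium itself. otomp (ENSDARG00000040306) encodes otolith matrix protein, a relative of melanotransferrin that is deposited in the growing stone. Control replicates 1 to 4 held 60.1, 108, 81.4 and 82.3 CPM, and ca_fgfr1 replicates 1 to 4 held 200.1, 95.5, 88.1 and 74.4 CPM (values are in this order throughout). The higher ca_fgfr1 mean (115 ± 57.7 against 82.9 ± 19.5 CPM, SD, n = 4 each) came from replicate 1, since the other ca_fgfr1 libraries lay inside the range of the controls. Its log2 fold change was 0.47 ± 0.33 SE (edgeR adjusted p = 0.870) and was 0.06 without ca_fgfr1 replicate 1 and 0.34 without control replicate 1.

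stm (ENSDARG00000035694) encodes Starmaker, an acidic phosphoprotein that controls the shape and crystal form of the otolith in zebrafish. Controls held 426, 433, 324 and 269 CPM, and ca_fgfr1 libraries 574, 513, 387 and 267 CPM. The groups overlapped, with the highest values in ca_fgfr1 replicates 1 and 2 and the lowest in replicate 4 of each group. Between groups the log2 fold change was 0.26 ± 0.27 (edgeR adjusted p = 0.908). It ranged from 0.10 without ca_fgfr1 replicate 1 to 0.41 without ca_fgfr1 replicate 4, and was 0.16 and 0.13 without ca_fgfr1 replicate 2 and control replicate 4.

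oc90 (ENSDARG00000001721) encodes otoconin 90, a phospholipase-like protein of the matrix that helps to seed the otolith. Levels in controls were 10.96, 195, 171 and 136 CPM, and those in ca_fgfr1 were 184, 59.7, 137 and 65.5 CPM. Among the 10 genes this was the widest spread of any with more than 10 CPM, a 17.8-fold range, and the low libraries came from both groups: control replicate 1 was lowest by far, and ca_fgfr1 replicates 2 and 4 came next. The log2 fold change was -0.20 ± 0.66 (edgeR adjusted p = 0.975). Without control replicate 1 it was -0.59, and without control replicate 2 it was 0.08, so its sign depended on single libraries.

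The Eya genes encode coactivators with phosphatase activity that bind transcription factors of the sine oculis family in placodes, and eya1 is needed for the survival of ear cells in zebrafish. eya1 (ENSDARG00000014259) measured 50.5, 107, 129.7 and 121 CPM in controls, against 95.5, 55.9, 101 and 85.6 CPM with ca_fgfr1. All 4 ca_fgfr1 libraries lay below control replicates 2 to 4, but control replicate 1 lay below all of them. For eya1 the log2 fold change was -0.27 ± 0.31 (edgeR adjusted p = 0.919). Without control replicate 1 it was -0.50 ± 0.22, with an unadjusted p of 0.0466 and an edgeR adjusted p of 0.185. In that fit 4857 of 18493 genes reached an unadjusted p under 0.05, so low p-values were common there.

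eya2 (ENSDARG00000018984) had a narrower spread than eya1. It measured 38.4, 62.8, 66.1 and 60.9 CPM in controls, against 54.4, 47.4, 57.6 and 42.6 CPM with ca_fgfr1. As for eya1, control replicate 1 was lowest and the other controls lay above every ca_fgfr1 library. The change of eya2 was -0.18 ± 0.23 on the log2 scale (edgeR adjusted p = 0.931). Without control replicate 1 it was -0.33 ± 0.17 (unadjusted p = 0.0888, edgeR adjusted p = 0.251), and without control replicate 3 or ca_fgfr1 replicate 3 it was -0.11 or -0.27.

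dlx3b and dlx4b encode homeodomain factors that act together in zebrafish to make ectoderm competent to form ear and nose, and they neighbour each other in the RefSeq assembly GRCz12tu. dlx3b (ENSDARG00000014626) was nearly constant in controls, at 42.7, 44.6, 43.2 and 43.7 CPM. The coefficient of variation was 1.84%, below the 3.75% that counting error alone would give. In ca_fgfr1 it was at 27.3, 31.8, 48.3 and 38.0 CPM, a coefficient of variation of 25.0% against 3.98% from counting. In ca_fgfr1, replicates 1, 2 and 4 were thus below all controls and replicate 3 was above them all. Its log2 fold change was -0.26 ± 0.23 (edgeR adjusted p = 0.884).

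dlx4b (ENSDARG00000071560) measured 25.7, 26.7, 20.7 and 25.3 CPM in controls, against 18.4, 26.2, 37.2 and 24.6 CPM with ca_fgfr1. As for dlx3b, ca_fgfr1 replicate 3 was the highest and ca_fgfr1 replicate 1 the lowest of all 8 libraries. The log2 fold change was 0.12 ± 0.25 (edgeR adjusted p = 0.967), and it was -0.11 without ca_fgfr1 replicate 3.

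Pax genes of this group encode paired-domain factors: pax8 is among the earliest genes of the otic placode, and pax5 marks the anterior vesicle, where the utricle forms. Both are also expressed at the midbrain-hindbrain boundary and in neurons. pax8 (ENSDARG00000015879) measured 1.59, 5.04, 4.67 and 3.32 CPM in controls, against 1.67, 0.419, 1.72 and 8.62 CPM with ca_fgfr1. These rest on 7 to 132 counts per library. In ca_fgfr1, replicate 2 was below all controls, replicates 1 and 3 lay just above the lowest control, and replicate 4 was the highest of all. The log2 fold change was -0.25 ± 0.73 (edgeR adjusted p = 0.975), -1.55 without ca_fgfr1 replicate 4 (unadjusted p = 0.0259, edgeR adjusted p = 0.969) and 0.11 without ca_fgfr1 replicate 2.

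pax5 (ENSDARG00000037383) was the gene with the fewest counts, 0 to 36 per library. It measured 0, 0.886, 0.975 and 1.12 CPM in controls, against 1.72, 1.14, 1.26 and 0.915 CPM with ca_fgfr1. The 0 counts in control replicate 1 allow a level of up to 0.281 CPM (3 counts, for counting error only). Of the ca_fgfr1 libraries, 3 lay above all controls and replicate 4 within their range. That order rested in part on scaling, since ca_fgfr1 replicates 2 and 3 held 19 and 22 counts, fewer than the 23 of control replicate 4. Its log2 fold change was 0.71 ± 0.66 (edgeR adjusted p = 0.893) and 0.34 without control replicate 1.

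hmx3a (ENSDARG00000070955) encodes a homeodomain factor of the anterior otic vesicle and its neuroblasts. It measured 5.90, 18.9, 15.1 and 9.66 CPM in controls, against 20.9, 12.6, 18.4 and 11.1 CPM with ca_fgfr1. The groups overlapped, with control replicate 1 lowest and ca_fgfr1 replicate 1 highest. The log2 fold change was 0.34 ± 0.37 (edgeR adjusted p = 0.910). It was 0.11 without control replicate 1 (edgeR adjusted p = 0.854), 0.18 without ca_fgfr1 replicate 1 and 0.62 without control replicate 2.

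The width of the intervals, all from the main fit of 8 libraries, differed between genes. Intervals were not computed with a library left out, where some standard errors were larger (eya1, -0.40 ± 0.36 without ca_fgfr1 replicate 3). The 95% interval of the log2 fold change lay within a 2-fold change in either direction for 5 genes: stm (-0.34 to 0.87), eya1 (-0.96 to 0.41), eya2 (-0.69 to 0.34), dlx3b (-0.76 to 0.24) and dlx4b (-0.44 to 0.67). For the other 5 genes, a change of more than 2-fold lay inside the interval. otomp and hmx3a reached 1.19 and 1.16 at their upper ends, pax5 reached 2.16, and oc90 and pax8 ran from -1.65 to 1.25 and from -1.86 to 1.37.

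**Figure D2:**
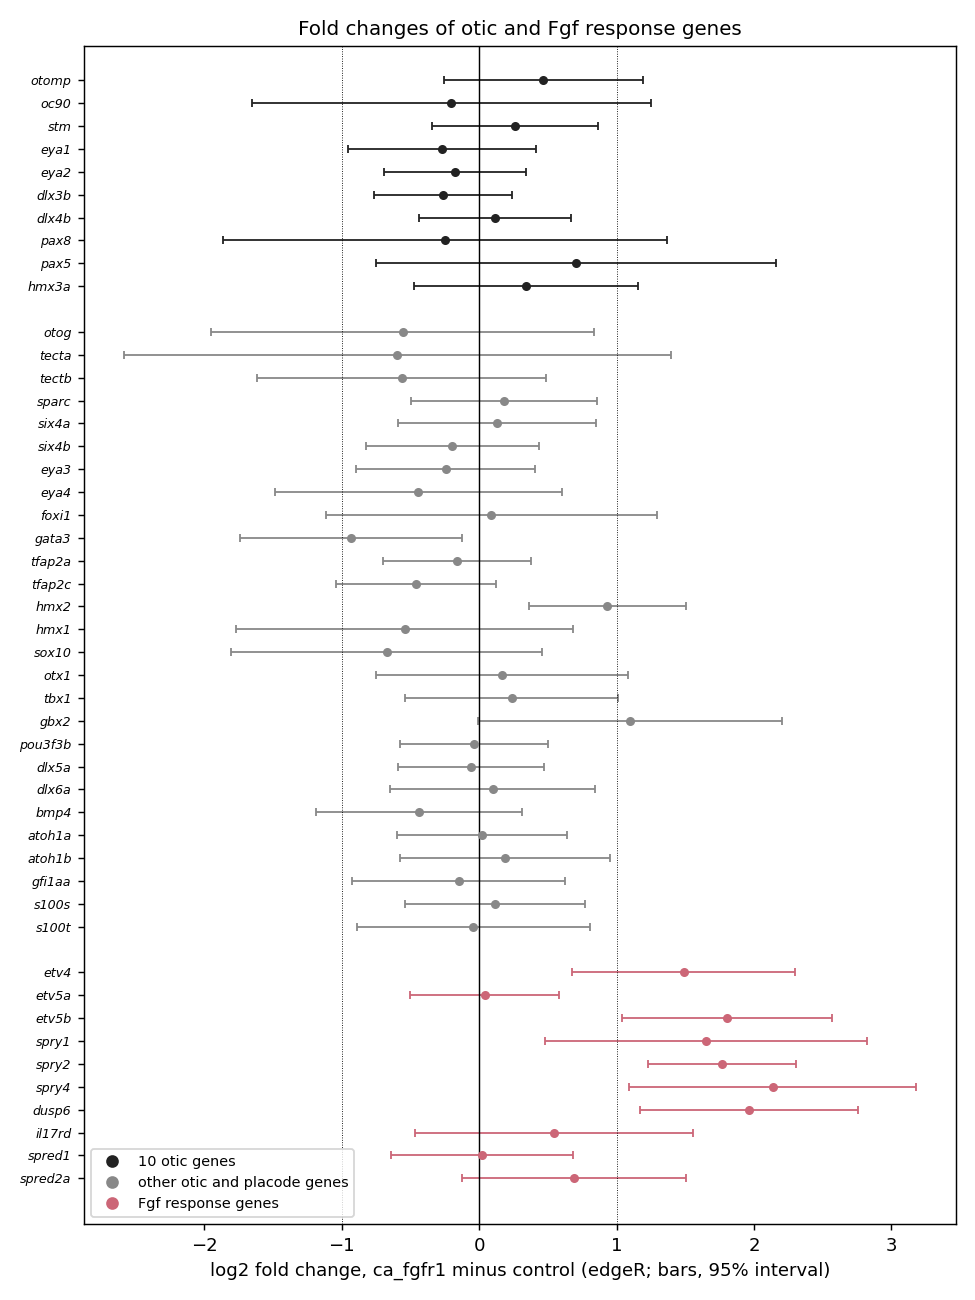
Log2 fold change of ca_fgfr1 minus control (horizontal axis, edgeR) with its 95% interval for the 10 otic genes (black), other otic and placode genes (grey) and Fgf response genes (red). Dotted lines mark a 2-fold change. Intervals of the 10 otic genes all span 0, whereas those of etv4, etv5b, spry1, spry2, spry4 and dusp6 lie above it. Among the grey genes, the interval of hmx2 lies above 0 and that of gata3 below it. Genes with a pair of IDs, such as SOX9, are not shown.

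Other genes of the ear were read from lists by role. Among 4 tested matrix genes, 0 passed an adjusted p of 0.05, with a median log2 fold change of -0.56. They include tecta (0.187 to 8.26 CPM) and tectb (2.94 to 14.0 CPM), which encode tectorins of the membranes over sensory patches. Both IDs named OTOL1, an otolith collagen, held 0 to 3 counts per library. Of 8 preplacodal genes 0 passed, with a median of -0.22. Among them gata3, a zinc finger factor of the otic placode, was the only gene with an unadjusted p under 0.05 (53.1 ± 17.2 and 27.8 ± 11.5 CPM, SD, control and ca_fgfr1). Its log2 fold change was -0.93 ± 0.37 (edgeR adjusted p = 0.866). The paper also names gata3 as a marker of ventral hindbrain neurons at a later stage, and which tissue its RNA came from was not tested. Of 5 tested hair cell genes 0 passed, with a median of 0.02. The late hair cell factor pou4f3 had 0 to 10 counts per library and was not tested. That median was the value of atoh1a, which held 54.0 to 110 CPM, and atoh1b held 75.2 to 227 CPM. Both are also described in the paper as genes of the hindbrain, atoh1a in dorsal progenitors and differentiating neurons and atoh1b during neurogenesis. Which tissue the RNA of atoh1a and atoh1b came from was not tested, so the median is not a measure of hair cells alone.

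Among 10 tested genes of otic regions, 0 passed, and the median was 0.03. The gene hmx2 (ENSDARG00000070954) came closest. It neighbours hmx3a in GRCz12tu and encodes a related factor of the same anterior region. It measured 13.02, 18.1, 14.6 and 10.8 CPM in controls, against 29.9, 30.4, 29.0 and 18.3 CPM with ca_fgfr1. The groups did not overlap, by a margin of 18.3 against 18.1 CPM, as for 3.34% of all genes. That margin rested on scaling for composition. Control replicate 2 held 265 of 14125336 counts, a larger share than the 280 of 15327169 in ca_fgfr1 replicate 4. For hmx2 the log2 fold change was 0.93 ± 0.26 with an unadjusted p of 0.00425, and it did not pass over all genes (edgeR adjusted p = 0.692). For the inducing ligand fgf3 the log2 fold change was 0.46 ± 0.33 (edgeR adjusted p = 0.872).

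For each of the 10 genes, the libraries of at least 1 group spanned a wider range than the difference between the group means. Control replicate 1 was the lowest of the 8 libraries for 6 genes (otomp, oc90, eya1, eya2, pax5 and hmx3a) and the highest for 0, with a mean deviation of -0.94 on the log2 scale. Yet stm and dlx4b lay within the range of the other controls there, and dlx3b was at 42.7 CPM beside 43.2 to 44.6 CPM. ca_fgfr1 replicate 2 was lowest for pax8 and second lowest for oc90, eya1 and dlx3b, with a mean deviation of -0.31. In ca_fgfr1 replicate 1 the genes divided: otomp, stm, pax5 and hmx3a were at their highest and dlx3b and dlx4b at their lowest.

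**Figure D3:**
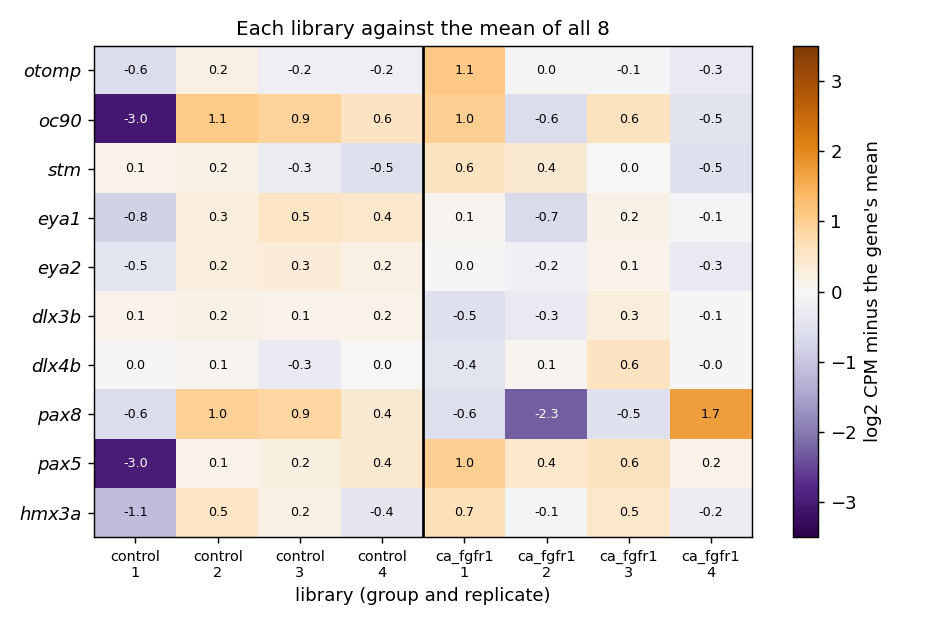
Log2 CPM of each otic gene (rows) in each library (columns) minus the mean of that gene over all 8 libraries, with the value written in each cell. Purple is below and orange above the mean. Control replicate 1 is at -3.0 for oc90 and pax5, and ca_fgfr1 replicate 2 is at -2.3 for pax8.

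Levels of other tissues differed between libraries too, not always in the same ones. Over 8 of 8 tested epidermis genes, the summed level was highest in control replicate 1 (24834 CPM), against 9097 to 14830 CPM in the other controls. In ca_fgfr1 it ran from 7194 CPM in replicate 1, the lowest of all, to 13918 CPM, with 12310 CPM in replicate 2. No epidermis gene was at 0 counts in any library. Over 8 of 8 tested hindbrain genes, the sum was 2037 CPM in control replicate 1, 2086 CPM in ca_fgfr1 replicate 2 and 1946 CPM in ca_fgfr1 replicate 4, against 2502 to 2952 CPM in the others. Its members diverged. mafba, a segmentation gene of the rhombomeres beside the ear, was at 11.7 CPM in control replicate 1 and 4.90 CPM in ca_fgfr1 replicate 2, against 22.9 to 38.4 CPM elsewhere, and egr2b, hoxb3a and elavl3 were also lowest in those libraries. In contrast sox3 was highest in control replicate 1 (1231 CPM) and at 1214 CPM in ca_fgfr1 replicate 2. hoxa2b was second highest in control replicate 1 (121 CPM). neurog1 was lowest in control replicate 1 (54.0 CPM) but at 111 CPM in ca_fgfr1 replicate 2, near its highest value of 116 CPM. Among genes with a pair of IDs, both named PAX2, whose zebrafish genes mark the otic vesicle among other tissues, were lowest in control replicate 1 (9.55 and 2.62 CPM, against 16.8 to 69.1 and 5.62 to 18.1 CPM). In the lists for epidermis, hindbrain, cranial ganglia, neural crest, mesenchyme, blood and muscle, 0 genes passed an edgeR adjusted p of 0.05. An edgeR unadjusted p under 0.05 was reached by 2 of 8 epidermis, 2 of 4 mesenchyme and 2 of 2 muscle genes. Each of these had a fitted change below 0. The share over all tested genes was 5.34%, and 0 genes of the hindbrain, cranial ganglia, neural crest and blood lists reached that threshold. For the epidermal factor tp63 the groups did not overlap (77.6 to 99.3 CPM in controls, 39.4 to 59.5 CPM with ca_fgfr1, log2 fold change -0.79 ± 0.21, unadjusted p = 0.00346, edgeR adjusted p = 0.657). The same held for foxc1a of mesenchyme (13.1 to 15.9 CPM, against 3.96 to 7.64 CPM with ca_fgfr1, log2 fold change -1.24 ± 0.27, unadjusted p = 0.000824, edgeR adjusted p = 0.405). The others were krt5 of epidermis (-0.85, unadjusted p = 0.0135), col1a2 of mesenchyme (-0.96, unadjusted p = 0.0224), and the muscle genes actc1b and myhz2, which held at most 3.59 CPM apart from actc1b in control replicate 4 (112 CPM). The groups did not overlap for myhz2 either (0.750 to 1.12 CPM in controls, 0 to 0.359 CPM with ca_fgfr1). Groups were thus apart for 1 of 8 epidermis, 1 of 4 mesenchyme and 1 of 2 muscle genes, beside 3.34% of all genes. The fitted change was below 0 for 6 of 8 epidermis genes (median -0.41) and 3 of 4 mesenchyme genes (median -0.55), and above 0 for 2 and 1. It was below 0 for 5 of 8 hindbrain, 5 of 5 cranial ganglia, 4 of 5 neural crest and 3 of 3 tested blood genes. Over all tested genes the share below 0 was 54.1%. For foxc1b of mesenchyme the fitted change was -0.15, and the groups overlapped. In the list for the midbrain-hindbrain boundary 0 genes passed too. There 1 of 3 tested genes, en1b, had an edgeR unadjusted p under 0.05, with a fitted change above 0 (0.76, unadjusted p = 0.0351). For cnpy1 and wnt1 the fitted changes were 0.27 and 0.08. The part that these tissues or the extent of the dissection play in the otic values was not tested. Without control replicate 1 and ca_fgfr1 replicate 2 together, a choice made after these values were seen, 0 of the 10 genes passed an adjusted p of 0.05 and the median log2 fold change was 0.01.

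To ask which otic genes rose and fell together, log2 CPM values were correlated over the 8 libraries for all 45 pairs. No pair passed an adjusted p of 0.05, and 26 of 45 had r above 0. The highest value was between oc90 and eya2 (Pearson r = 0.89, exact permutation p = 0.00298, adjusted p = 0.0709; Spearman rho = 0.76, exact permutation p = 0.0368). It was 0.85 without the libraries farthest from the median of oc90, control replicate 1 and ca_fgfr1 replicate 2. Without control replicate 1 alone r was 0.86 (exact permutation p = 0.0238, adjusted p = 0.396). oc90 with pax5 had r = 0.89 too (exact permutation p = 0.0429, adjusted p = 0.276), but rho was 0.26 (exact permutation p = 0.536) and r was 0.32 without the farthest libraries. eya1 and eya2 had r = 0.87 (exact permutation p = 0.00613, adjusted p = 0.0919) and rho = 0.95 (exact permutation p = 0.00114), with r = 0.88 without the farthest libraries. Without control replicate 1 alone their r was 0.78 (exact permutation p = 0.0355, adjusted p = 0.400). oc90 and hmx3a had r = 0.86 (exact permutation p = 0.0101, adjusted p = 0.114) and rho = 0.86 (exact permutation p = 0.0107), with r = 0.65 without the farthest libraries. For oc90 with eya1 r was 0.86 (exact permutation p = 0.00315, adjusted p = 0.0709) and rho 0.69 (exact permutation p = 0.0694), but r was 0.56 without the farthest libraries. The lowest values were -0.70 for stm with pax8 (rho = -0.64) and -0.69 for otomp with dlx3b (rho = -0.10).

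The matrix genes did not all vary together. otomp and stm had r = 0.62 (exact permutation p = 0.0908, adjusted p = 0.325) and rho = 0.71 (exact permutation p = 0.0576), with r = 0.83 without the farthest libraries. oc90 and stm had r = -0.05 (exact permutation p = 0.914, adjusted p = 0.947) and rho = 0.24 (exact permutation p = 0.582), with r = 0.67 without control replicate 1 and ca_fgfr1 replicate 2. dlx3b and dlx4b had r = 0.63 (exact permutation p = 0.104, adjusted p = 0.330), rho = 0.64 (exact permutation p = 0.0962) and r = 0.63 without the farthest libraries. pax5 with hmx3a had r = 0.80 (exact permutation p = 0.0218, adjusted p = 0.196) but rho = 0.52 (exact permutation p = 0.197), and r was -0.04 without the farthest libraries, so that relation rested on them.

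**Figure D4:**
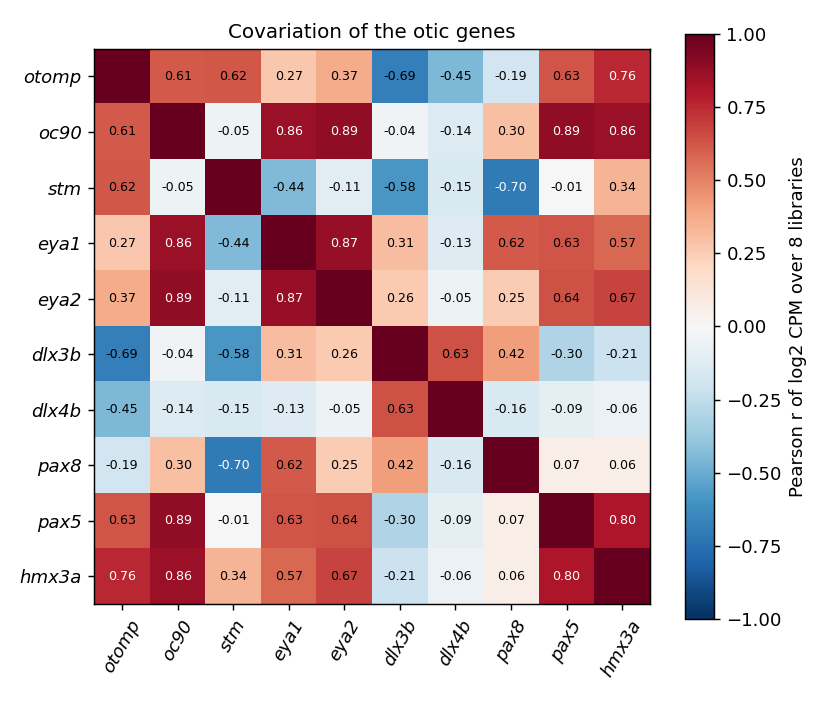
Pearson correlation of log2 CPM over the 8 libraries for each pair of otic genes, as colour and number (diagonal, 1 by definition). oc90 is high with eya1, eya2, pax5 and hmx3a and near 0 with stm, dlx3b and dlx4b.

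Ratios of counts within a library do not depend on how libraries are scaled, and 6 were computed after the values were seen, so they were not tested. The dlx4b count per dlx3b count was 0.601, 0.598, 0.479 and 0.578 in controls and 0.675, 0.823, 0.771 and 0.649 in ca_fgfr1. Every ca_fgfr1 library was above every control, which held for no other of the 6 ratios. The groups overlapped for dlx3b and dlx4b taken singly. How often ratios of other gene pairs separate the groups was not computed. oc90 per otomp was 0.182 in control replicate 1, 1.65 to 2.11 in the other controls and 0.625 to 1.55 in ca_fgfr1, so the groups overlapped through control replicate 1 alone. hmx2 per hmx3a was 0.953 to 1.12 in control replicates 2 to 4 and 1.43 to 2.42 in ca_fgfr1, with 2.21 in control replicate 1.

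**Figure D5:**
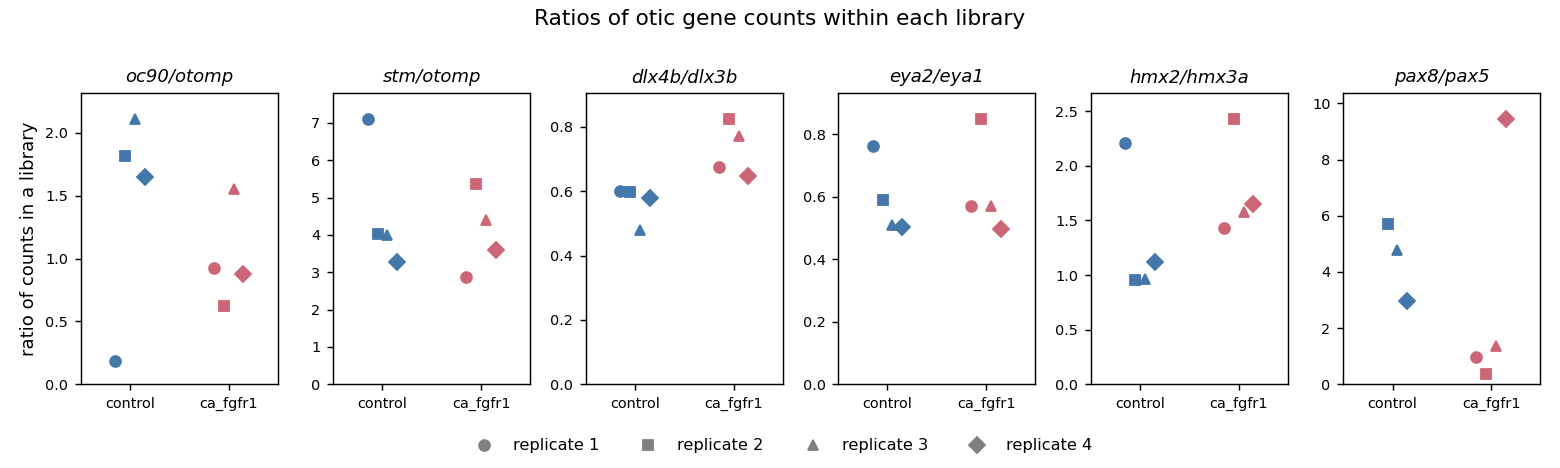
Ratio of the counts of paired otic genes within each library (vertical axes from 0), controls in blue and ca_fgfr1 in red, with the shape giving the replicate. The dlx4b/dlx3b ratio is at 0.479 to 0.601 in controls and 0.649 to 0.823 in ca_fgfr1. The other ratios overlap between groups, and the pax8/pax5 ratio lacks control replicate 1, where pax5 had 0 counts. No ratio was tested.

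Genes with a profile like that of the otic genes were listed by Pearson r of log2 CPM over the 8 libraries, as a description without a test. Beside oc90 the nearest were PKNOX2 and ELAPOR2 (r = 0.99 each) and OTOP1 (ENSDARG00000021566, r = 0.99). OTOP1 is otopetrin 1, a proton channel that zebrafish need to form otoliths. It measured 1.499, 25.2, 26.9 and 18.3 CPM in controls, against 29.4, 6.34, 25.1 and 10.1 CPM with ca_fgfr1, low in control replicate 1 and in ca_fgfr1 replicates 2 and 4 as oc90 was. Beside the mean profile of otomp, oc90 and stm the nearest were hid1b (r = 0.98), GFI1 (ENSDARG00000044457, r = 0.95) and dlb (r = 0.95), which encodes a Delta ligand of the Notch pathway. dlb was at 169 to 228 CPM in controls and 172 to 306 CPM in ca_fgfr1, highest in ca_fgfr1 replicate 1 as otomp was. Beside the other otic genes the nearest was ENSDARG00000086161 for otomp (r = 0.93), fbxo5 for stm (0.98), CTNNA2 for eya1 (0.99) and CHRNB4 for eya2 (0.99). It was zgc:174972 for dlx3b (0.95), jam2a for dlx4b (0.97), RIPK4 for pax8 (0.97), GALNT9 for pax5 (0.99) and TMEM229B for hmx3a (0.97). A high r was thus not particular to oc90 and OTOP1. All these genes were the most alike of 16641 genes compared.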

How the data were processed

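RNA from 4 control and 4 ca_fgfr1 hindbrains was amplified with the SMARTer kit and sequenced as single-end reads. The authors aligned reads to GRCz10 with Ensembl release 89 transcripts using STAR 2.5.1b and RSEM 1.2.31, and deposited expected counts rounded to whole numbers, not scaled for depth. RSEM divides reads shared by similar genes, and use of strand was not given in the sources used here. Columns marked C and F were read as control and ca_fgfr1, with the number as the replicate. Symbols named 26350 of 32189 IDs.

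Genes were kept by filterByExpr, scaled by TMM and compared with edgeR 4.0.16 (quasi-likelihood F-test, no covariates) in R 4.3.3, with p-values adjusted over all 18075 genes (Benjamini-Hochberg). DESeq2 1.42.0 and limma 3.58.1 were alternatives. Each standard error was the size of the log2 change divided by the root of its F statistic, and intervals cover 95%. Correlations used log2 CPM with a prior count of 2, and exact permutation p-values were adjusted over the pairs. Scripts were tested on simulated data. Any listed gene could be named, plus the 8 genes most like the matrix genes and the 3 most like each otic gene. The otic genes and the lists were chosen with earlier results of these data known. Of 108 other listed genes, 79 matched 1 ID; the rest were left out or given by ID. Differences between libraries exceeded counting error for most otic genes. The main fit did not pair libraries by replicate number, and such a pairing was neither shown nor excluded.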

Additional observations from a re-analysis of the deposited data

Results flagged for a closer look

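In 20 groups of 4 libraries (10 otic genes in each genotype), 2 held a library far from the others by Dixon's criterion, where chance gives about 1 in 20 groups. otomp was at 200.1 CPM in ca_fgfr1 replicate 1, against 74.4 to 95.5 CPM in the other ca_fgfr1 libraries. pax8 was at 8.62 CPM (132 counts) in ca_fgfr1 replicate 4, against 0.419 to 1.72 CPM in the others. The causes were not tested.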

How the results depend on the processing

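No otic gene passed an adjusted p of 0.05 in any of the settings run: other scalings, filters and tools, the replicate block, each library left out, and control replicate 1 with ca_fgfr1 replicate 2 left out. The filter of at least 5 CPM in at least 4 libraries kept 8 of the otic genes, without pax8 and pax5. The lowest adjusted p was 0.185, for eya1 without control replicate 1. The sign changed for oc90 with limma-voom (0.22), which also moved pax8 to -0.95, pax5 to 1.21 and the median of the otic genes to 0.15. The replicate block put pax8 at -0.78. The median ran from -0.0868 to 0.117 with 1 library left out, and with 1 library left out the log2 fold change ran from -0.59 to 0.0752 for oc90, from -1.55 to 0.11 for pax8 and from -0.11 to 0.26 for dlx4b. Without a change of sign, it ran from 0.06 to 0.62 for otomp, 0.10 to 0.41 for stm, -0.50 to -0.14 for eya1, -0.33 to -0.11 for eya2, -0.45 to -0.14 for dlx3b, 0.34 to 0.94 for pax5 and 0.11 to 0.62 for hmx3a. Over all genes, 9 passed, against 14 without a filter on low counts, 87 with DESeq2, 2 with the replicate block, and 1 to 13 with 1 library left out. By the study's criteria 3 genes passed in edgeR and 44 in DESeq2, none of them otic. Same-numbered libraries deviated from their groups with correlations of -0.293, -0.0132, 0.22 and 0.194. These are of mixed sign, so a pairing by number was neither shown nor excluded. Correlated pairs of otic genes past the threshold numbered 0, but 3 with library totals only (eya1 with eya2, and each with oc90) and 0 to 1 with 1 library left out (eya1 with eya2, without ca_fgfr1 replicate 2 or 4). The cause of these shifts was not tested. With 0 to 36 counts for pax5 and 7 to 132 for pax8, counting error adds to the spread of both.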

Other observations

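Some genes shared by the ear and the hindbrain differed more between groups than the 10 otic genes, without passing over all genes. Both IDs named SOX9, whose zebrafish genes act in the otic placode and neural crest, had a higher mean in ca_fgfr1. ENSDARG00000043923 ranged from 11.9 to 41.1 CPM in controls and from 36.6 to 118 CPM in ca_fgfr1 (log2 fold change 1.44 ± 0.43, edgeR adjusted p = 0.789). ENSDARG00000003293 was at 10.8 to 20.99 and 15.6 to 47.7 CPM (log2 fold change 1.03 ± 0.38, edgeR adjusted p = 0.866). gbx2, a homeobox gene of the anterior hindbrain and otic placode, ranged from 18.9 to 38.2 CPM in controls, against 13.8, 47.7, 63.0 and 113 CPM with ca_fgfr1 (log2 fold change 1.096 ± 0.50, edgeR adjusted p = 0.866), lowest in the ca_fgfr1 replicate 1 in which otomp was highest.

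The midbrain-hindbrain boundary is another site of pax5 and pax8. Of the 2 IDs named EN2, an engrailed gene of that region, ENSDARG00000038868 was at 0.718 to 2.62 CPM in controls and 3.05 to 11.2 CPM in ca_fgfr1. Its log2 fold change was 2.57 ± 0.51 (edgeR adjusted p = 0.284), and the groups did not overlap, as for 3.34% of all genes. The other ID held 0 to 10 counts per library and was not tested. For other tested genes of that list the groups overlapped. Their log2 fold changes were 0.76 (en1b), 0.54 (FGF8, ENSDARG00000003399), 0.27 (cnpy1), 0.08 (wnt1), and -0.43 and -0.10 for the IDs named PAX2. SOX9, gbx2 and EN2 were picked after their values were seen.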
